A study of Homo sapiens with 21 samples.

Results

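The response of HL-60 cells to knockdown of SYK was taken as the set of genes whose RNA changed in the same direction with each of 2 hairpins against SYK. The contrast was the mean of the shSYK_1 and shSYK_2 group means minus the shLuc mean, on log2 intensities. A gene was called where limma's Benjamini-Hochberg adjusted p over all genes was below 0.05, and it was kept as a member where its change had the same sign with each hairpin. Of 12165 genes tested, 2793 were members, 1314 of them higher and 1479 lower after knockdown. The study transduced 3 human acute myeloid leukaemia lines with hairpins against SYK and asked how this kinase relates to FLT3. HL-60 had 7 of the 21 arrays. The HL-60 cells carried shSYK_1 (2 arrays), shSYK_2 (2 arrays) or shLuc (3 arrays), a hairpin against luciferase, a gene that human cells lack, and were otherwise of 1 established line. All groups received puromycin at 1 µg/ml from 48 h after infection, and RNA was taken at day 5. The labels give the replicates as separate transductions. The p-values cover the spread between transductions, estimated jointly over the 3 lines, and nothing beyond it. Over genes, the difference between the 2 shSYK_2 arrays had an SD of 0.294 log2, against 0.199 for the 2 shSYK_1 arrays. A spread shared by all groups can therefore make p-values too small for shSYK_2 and for the joint contrast. With the HL-60 arrays fitted alone there were 1750 members.

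SYK is a cytoplasmic tyrosine kinase whose tandem SH2 domains dock on phosphorylated ITAM motifs, the paired tyrosine motifs in the tails of adaptors such as FCER1G and TYROBP. Once docked it phosphorylates adaptors and activates PLCγ, PI3K and VAV proteins downstream of Fc receptors, C-type lectins and integrins. HL-60 is a leukaemia line of promyelocyte-like cells that makes primary granule proteins, carries amplified MYC and can be driven by chemical inducers towards neutrophils or towards monocytes and macrophages. The target sequences of the SYK hairpins are shown because every comparison rests on them. Both lie in SYK, a gene on chromosome 9. They are 21 bases long, with a GC content of 47.6% for shSYK_1 and 52.4% for shSYK_2, and no capitals are used because no base within them was singled out.
shSYK_1: gcagcagaacagacatgtcaa
shSYK_2: gcaggccatcatcagtcagaa

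For 1 array the labels conflict. The title and treatment of HL-60 shSYK_2 replicate 1 give shSYK_2, while its source name gives shSYK_1. It was used by its title. In MOLM-14 and U937, 131 genes differed by over 1 log2 in the same direction between the hairpins, and this array lay on the shSYK_2 side of the HL-60 shSYK_1 mean for 115 of them. The other shSYK_2 array lay on that side for 113, the shLuc arrays for 93 to 98, and each shSYK_1 array, set against its other replicate, for 60 and 71. Over all 3895 genes called for the hairpin difference averaged over MOLM-14 and U937, the array with conflicting labels lay on that side for 73.2%. The other shSYK_2 array did so for 78.8%, the shLuc arrays for 67.9% to 68.7% and the shSYK_1 arrays for 50.0% and 49.9%. HL-60 shSYK_2 replicate 1 also stood apart in its distribution of values, with an upper quartile of 122.3 against 134.616 to 137.513 on the other HL-60 arrays. Counts that move without it are given both ways.

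The line was checked by markers of promyelocytes. In cells with shLuc, MPO, the myeloperoxidase of primary granules, averaged 12.80 ± 0.0545 log2 intensity in HL-60, against 6.15 ± 0.157 in MOLM-14 and 3.39 ± 0.238 in U937 (SD, n = 3 each). PRTN3, proteinase 3, averaged 10.29 ± 0.0308 in HL-60, against 8.64 ± 0.0690 and 8.62 ± 0.0290 in MOLM-14 and U937. MS4A3, a membrane protein of late progenitors, averaged 11.60 in HL-60, against 8.03 in MOLM-14 and 10.02 in U937. The other 3 markers did not single out HL-60. AZU1, azurocidin, averaged 6.98 ± 0.110 in HL-60, against 9.84 ± 0.0479 in MOLM-14 and 9.52 ± 0.0377 in U937. CTSG, cathepsin G, was also lowest in HL-60, at 11.47, against 12.24 and 13.29 in the same order, and ELANE, neutrophil elastase, had 11.59, against 11.59 and 12.47. In HL-60 all 6 lay above 4.0, the level under which values were treated as low. RMA summaries carry no detection call, levels of different genes cannot be compared, and fold changes are compressed, most at low intensity.

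The knockdown moved 24.4% of all genes tested past the threshold, 11.4% higher and 13.1% lower. Called or not, 64.7% of all genes had the same sign with each hairpin. Members made up 23.0% of all genes, with 10.8% higher and 12.2% lower, while 1.45% were called with opposite signs for the hairpins. Changes were mostly small. The median size among members was 0.37 log2, and 101 members were higher and 21 lower by over 1 log2. Changes of at least 0.5 log2 with each hairpin were found for 357 members, 2.93% of all genes (2.06% higher and 0.880% lower). For 2108 members all 4 hairpin arrays lay outside the range of the 3 shLuc arrays. Over all genes, whether called or not, 10.4% had all 4 hairpin arrays above and 11.6% had them below the shLuc arrays. Each hairpin by itself against shLuc called 24.3% of genes for shSYK_1 and 21.5% for shSYK_2. These contrasts share the shLuc arrays. Without shSYK_2 replicate 1 the shSYK_2 calls dropped to 1248, against 2611 with it, and calls with both hairpins to 766, against 1165. Of the members, 1165 were called with each hairpin, which is 9.58% of all genes (5.08% higher and 4.50% lower), 894 with shSYK_1 and not shSYK_2, 624 with shSYK_2 and not shSYK_1, and 110 with neither. Centring each array on its median turned the split into 1043 higher and 1940 lower (35.0% higher, against 47.0% higher without centring), a shift of 0.041 log2 applied to all genes. Without shSYK_2 replicate 1 there were 2556 members, 1372 higher and 1184 lower, of which 2228 were the same genes.

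**Figure D1:**
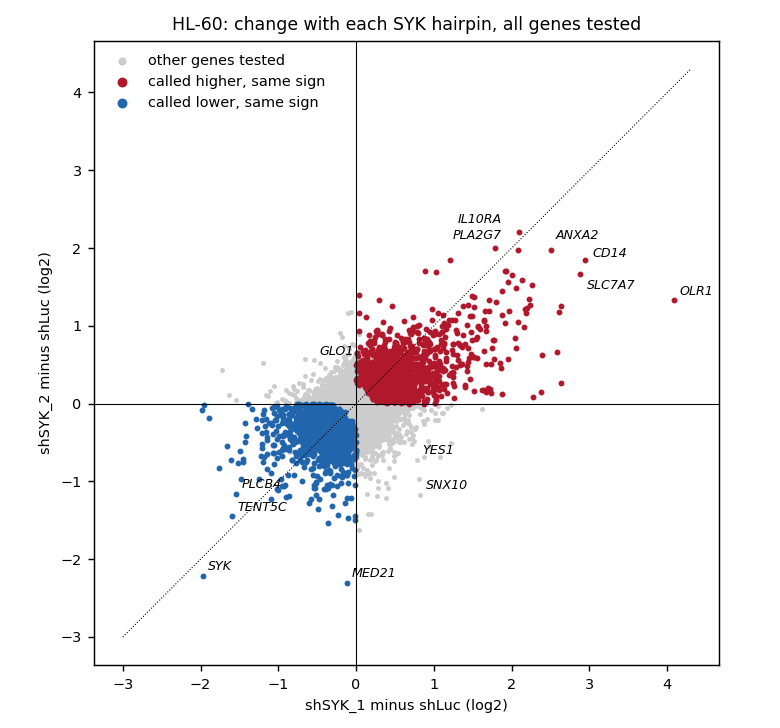
Change in each gene with shSYK_2 (vertical) and with shSYK_1 (horizontal), both minus shLuc in log2 units, for the 12165 genes tested in HL-60. Red points are the 1314 members that were higher and blue points the 1479 that were lower; SYK lies at -1.97 and -2.21 and MED21 at -0.12 and -2.30. Both axes use the same shLuc arrays.

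SYK itself fell with each hairpin. Its log2 intensity was 7.04 and 7.0 with shSYK_1 and 6.66 and 6.90 with shSYK_2, against 8.91, 9.05 and 9.0 with shLuc. The 4 hairpin arrays lay together, far under the 3 shLuc arrays. The change was -2.09 ± 0.0683 (SE; limma adjusted p = 6.78e-12), which leaves 23.5% of the shLuc intensity. It was -1.97 with shSYK_1 and -2.21 with shSYK_2, a difference of -0.24 that did not pass the threshold (limma adjusted p = 0.0716). The other SYK probe set gave -1.92. Because these are bulk RNA samples, fewer cells that express a gene and less of its RNA per cell cannot be told apart in any result given here.

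MYC, the growth-promoting transcription factor amplified in HL-60, had 12.02 and 11.92 with shSYK_1 and 12.26 and 12.30 with shSYK_2, against 12.93, 12.71 and 12.87 with shLuc. All 4 hairpin arrays were lower than every shLuc array, and MYC fell by 0.71 log2 (SE 0.0577, limma adjusted p = 1.53e-07), to 61.0% of shLuc. The fall was 0.31 log2 smaller with shSYK_2 than with shSYK_1 (limma adjusted p = 0.00691). FLT3, the receptor tyrosine kinase the series is about, was a member whose change rested on shSYK_1. Its values were 6.14 and 6.27 with shSYK_1 and 7.0 and 7.15 with shSYK_2, against 7.11, 7.24 and 6.98 with shLuc. The shSYK_2 arrays overlapped the shLuc arrays and the shSYK_1 arrays lay below both. The joint change was -0.47 ± 0.121 (limma adjusted p = 0.00908), made of -0.90 with shSYK_1 (adjusted p = 0.000169) and -0.03 with shSYK_2 (adjusted p = 0.905). Without shLuc replicate 2 the change in FLT3 was -0.40 and its call was lost (limma adjusted p = 0.0514). With shSYK_2 replicate 1 placed in shSYK_1, as its source name has it, the change in FLT3 was -0.30. Without shSYK_2 replicate 1 it was called at -0.43 (limma adjusted p = 0.0322), but the other shSYK_2 array gave 0.04, so FLT3 was then no member.

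The 15 largest rises ran from 1.78 to 2.71 log2 and held genes of several unlike functions, among them the receptors CD14, OLR1, IL10RA, LPAR6, CLEC7A and TREM1. Because they were picked by size on these same arrays, a clear separation of hairpin and shLuc arrays follows largely from the choice. All 15 had every hairpin array above every shLuc array, were called with each hairpin and stayed members without shSYK_2 replicate 1. CD14, the co-receptor for bacterial lipopolysaccharide on monocytes, had 9.48 and 9.51 with shSYK_1 and 8.27 and 8.50 with shSYK_2, against 6.48, 6.60 and 6.56 with shLuc. The groups formed 3 separate steps, and CD14 was 5.24-fold higher after knockdown (2.39 ± 0.124 log2, limma adjusted p = 8.51e-10). OLR1, the scavenger receptor for oxidised LDL, had 7.22 and 6.98 with shSYK_1 and 3.96 and 4.74 with shSYK_2, against 3.12, 3.17 and 2.75 with shLuc. Its shLuc values were at low intensity, and its rise of 2.71 ± 0.137 log2 (limma adjusted p = 6.69e-10) was 4.09 with shSYK_1 and 1.33 with shSYK_2. ANXA2, annexin A2, a calcium-dependent membrane-binding protein, had 9.63 and 9.68 with shSYK_1 and 9.05 and 9.23 with shSYK_2, against 7.14, 7.15 and 7.19 with shLuc, a change of 2.24 ± 0.0612 log2. All 3 of its probe sets had this sign, and they may also bind transcripts of ANXA2 pseudogenes.

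Some of the largest rises were nearly equal with the hairpins. IL10RA, the ligand-binding chain of the interleukin-10 receptor, had 6.36 and 6.23 with shSYK_1 and 6.33 and 6.49 with shSYK_2, against 4.33, 4.22 and 4.05 with shLuc. PLA2G7, the secreted phospholipase that hydrolyses platelet-activating factor, had 6.24 and 6.18 with shSYK_1 and 6.16 and 6.07 with shSYK_2, against 4.25, 4.16 and 3.98 with shLuc. For both genes the 4 hairpin arrays formed 1 cluster, and the change was 2.15 ± 0.0866 for IL10RA (limma adjusted p = 4.92e-11) and 2.03 ± 0.0785 for PLA2G7 (limma adjusted p = 4.04e-11). The difference between hairpins was 0.12 for IL10RA (adjusted p = 0.504) and -0.09 for PLA2G7 (adjusted p = 0.573). HMOX1, haem oxygenase, was also close to even, at 7.97 and 7.99 with shSYK_1 and 7.83 and 7.73 with shSYK_2, against 6.03, 5.93 and 6.25 with shLuc, a rise of 1.81 ± 0.133 log2. ADA2, a secreted adenosine deaminase of monocytes, rose by 1.89 log2 (1.78 with shSYK_1 and 2.0 with shSYK_2), and CALHM2, a channel protein, rose by 1.81.

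In others of the 15 the step between hairpins was wide. SLC7A7, the light chain of the y+L amino acid transporter, had 6.61 and 6.71 with shSYK_1 and 5.53 and 5.36 with shSYK_2, against 3.78, 3.68 and 3.88 with shLuc, a rise of 2.27 ± 0.0892 log2. C1QA, a chain of complement C1q made by macrophages, had 6.66 and 7.0 with shSYK_1 and 5.55 and 5.36 with shSYK_2, against 4.19, 4.32 and 4.10 with shLuc, a rise of 1.94 ± 0.0923. CD52, a short GPI-linked glycopeptide, rose by 2.61 with shSYK_1 and 1.18 with shSYK_2, and LPAR6, a lysophosphatidic acid receptor, by 2.26 and 1.52. Of the 15, 13 rose more with shSYK_1, and the difference between hairpins was called for 9, while 22.2% of all genes were called for it.

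**Figure D2:**
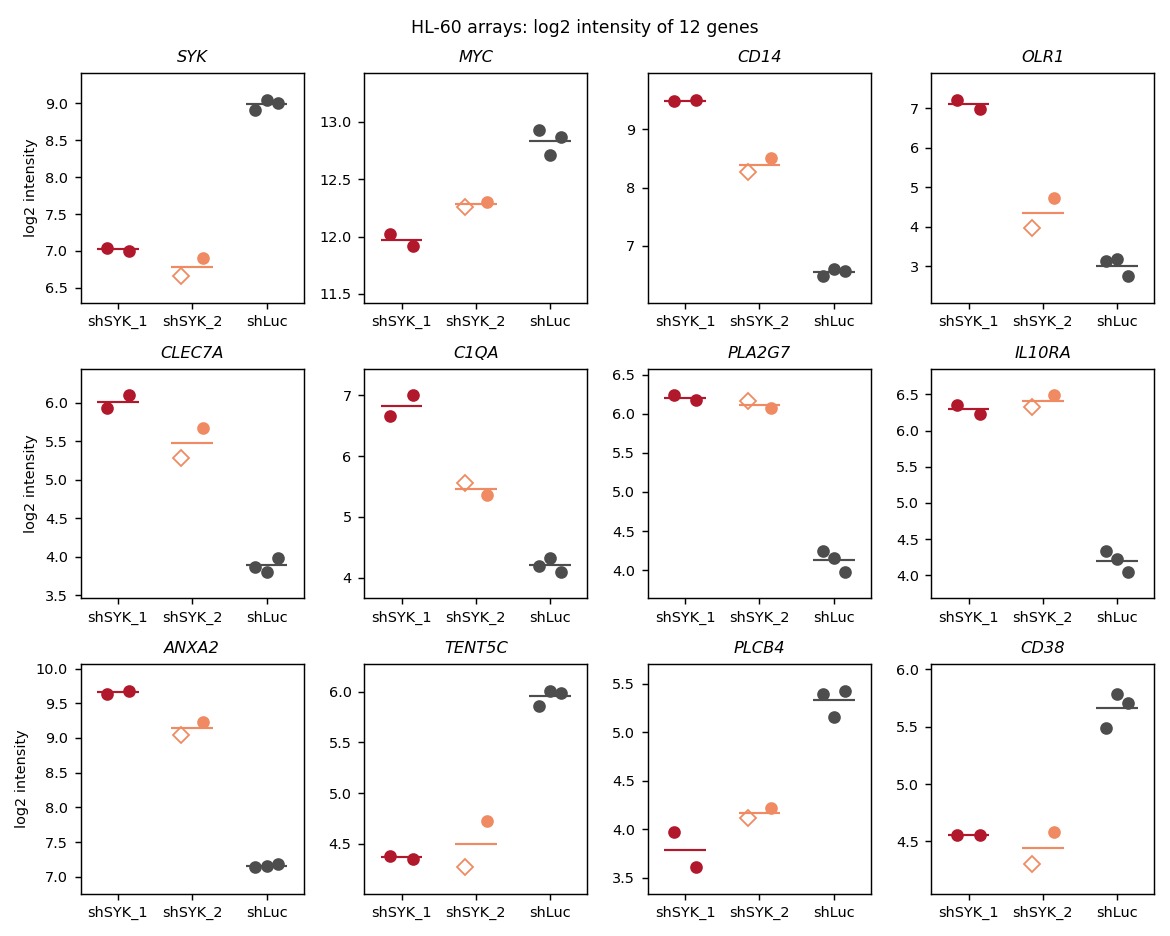
Log2 intensity on each HL-60 array for 12 genes; points are arrays in the groups shSYK_1, shSYK_2 and shLuc, lines are group means, and the open diamond is shSYK_2 replicate 1, whose labels conflict. For all 12 genes the hairpin arrays lie clear of the shLuc arrays, but apart from SYK and MYC the genes were picked for large changes on these same arrays. For CD14 the shSYK_1 arrays are at 9.48 and 9.51, the shSYK_2 arrays at 8.27 and 8.50 and the shLuc arrays at 6.48 to 6.60. Each vertical axis has its own range and does not start at 0.

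Receptors and adaptors of the ITAM and Fc receptor list were mostly higher. Of 17 measured, 14 rose, none fell and 3 were not called, with a median change of 0.95 log2, beside 10.8% higher, 12.2% lower and a median of -0.001 over all genes. The median was 1.24 with shSYK_1 and 0.77 with shSYK_2. FCER1G, the common Fc receptor γ chain that recruits SYK, had 9.77 and 9.89 with shSYK_1 and 9.68 and 9.59 with shSYK_2, against 8.62, 8.57 and 8.52 with shLuc, a rise of 1.17 ± 0.0618 log2 (limma adjusted p = 9.91e-10). CLEC7A, the β-glucan receptor Dectin-1, had 5.93 and 6.10 with shSYK_1 and 5.28 and 5.68 with shSYK_2, against 3.87, 3.81 and 3.99 with shLuc, a rise of 1.86 ± 0.108. No hairpin array overlapped a shLuc array for either gene. TREM1, an amplifier of myeloid inflammatory signals that pairs with TYROBP, rose by 1.78 ± 0.197, and the activating receptor LILRA2 by 1.2. Among the rises were also the inhibitory receptors LILRB2 at 1.10 and CD300A at 1.00 and the selectin ligand SELPLG at 0.49, while the activating receptors CLEC4E (0.15), SIRPB1 (0.22) and PILRB (0.01) were not called. TYROBP, the adaptor DAP12, had 9.98 and 9.96 with shSYK_1 and 10.48 and 10.29 with shSYK_2, against 9.56, 9.57 and 9.52 with shLuc, a rise of 0.62 ± 0.0666 that was larger with shSYK_2. FCGR2A rose by 0.95 and FCGR2B, the inhibitory Fcγ receptor, by 1.47, though their near-identical sequences make the assignment between them uncertain. TREM2, a lipid-sensing receptor of macrophages, rose jointly by 1.27 but by 2.38 with shSYK_1 and 0.15 with shSYK_2, whose 4.33 and 5.14 spanned the shLuc range of 4.43 to 4.69.

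The kinases and adaptors around SYK moved less. Among the 29 SYK signalling components measured, rises numbered 10 and falls 2, and the other 17 missed the threshold, with a median of 0.07. These counts stand beside 10.8% higher and 12.2% lower over all genes. The 2 that fell were SYK and LAT2, a transmembrane adaptor, at -0.26 ± 0.0699, and LAT2 lost its call without shLuc replicate 2 (-0.23) or shSYK_1 replicate 2 (-0.20). FGR, a SRC family kinase of mature myeloid cells, had 9.03 and 9.09 with shSYK_1 and 8.30 and 8.32 with shSYK_2, against 7.78, 7.73 and 7.72 with shLuc, a rise of 0.94 ± 0.0896. LYN, the SRC family kinase that phosphorylates ITAMs, rose by 0.37 and VAV1, an exchange factor for RAC, by 0.43. Centring each array reduced the number of rises in this list to 7.

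Monocyte and macrophage genes rose broadly, beside 10.8% higher and 12.2% lower over all genes. Of 32 measured, 23 rose, none fell and 9 were not called, with a median of 0.79 log2 (0.87 with shSYK_1 and 0.58 with shSYK_2). The same counts, 23 and none, came out without shSYK_2 replicate 1. Summed over the list, intensities ran from 4470 to 5910 on the hairpin arrays, against 2420 to 2540 on the shLuc arrays. LY86, the partner of the Toll-like receptor homologue CD180, had 6.72 and 6.77 with shSYK_1 and 7.46 and 7.35 with shSYK_2, against 5.75, 5.70 and 5.69 with shLuc, a rise of 1.36 ± 0.0551 (limma adjusted p = 4.92e-11). CCR1, a chemokine receptor, had 8.85 and 8.93 with shSYK_1 and 8.72 and 8.83 with shSYK_2, against 7.72, 7.67 and 7.72 with shLuc, a rise of 1.13 ± 0.0575. LY86 was higher with shSYK_2, whereas CCR1 was nearly level between the hairpins. CD86, a costimulatory ligand for T cells, rose by 1.72, the scavenger receptor CD36 by 1.62 and CCL2, the chemokine that draws monocytes, by 1.53. CCL2 had 7.80 and 7.79 with shSYK_1 and 8.44 and 8.43 with shSYK_2, against 6.72, 6.5 and 6.53 with shLuc. Not every macrophage gene took part. CSF1R, the M-CSF receptor, changed by 0.32 ± 0.146 (limma adjusted p = 0.124), CD163 by -0.06 and MRC1 by -0.09, none of them called. On the same arrays the 6 measured promyelocyte markers summed to 12300 to 15100, against 17200 to 17800 with shLuc. Of the 6, 3 fell, 1 was called with opposite signs and 2 were not called. The brightest genes weigh most in such a sum. The part of cell composition in these changes was not tested.

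Genes of late neutrophil maturation and of the lysosome rose less. Their counts stand beside 10.8% higher and 12.2% lower over all genes. Of 23 measured neutrophil genes, 14 rose (12 without shSYK_2 replicate 1), none fell and 9 were not called, with a median of 0.34. FPR1, the formyl peptide receptor, had 8.29 and 8.40 with shSYK_1 and 8.16 and 8.24 with shSYK_2, against 7.09, 7.07 and 6.95 with shLuc, a rise of 1.24 ± 0.121. CAMP, the antimicrobial peptide LL-37 of secondary granules, rose by 0.86. The calprotectin subunits S100A8 and S100A9 rose by 0.46 and 0.68, mostly with shSYK_1 (0.76 and 1.11) and less with shSYK_2 (0.16 and 0.24). For HP, haptoglobin, the brightest probe set rose by 1.76 while the other 2 fell by 0.53 and fell by 0.45, so its direction depends on the probe set. ITGAM, the integrin chain CD11b, rose by 1.16 on its brighter probe set and had -0.21, not called, on the other. Under centring or renewed quantile normalisation 1 gene of this list fell, with 11 or 13 rises. Of 26 measured lysosomal genes, 18 rose (20 without shSYK_2 replicate 1), none fell, 2 were called with opposite signs and 6 were not called, with a median of 0.41. CTSB, cathepsin B, had 9.86 and 9.98 with shSYK_1 and 9.56 and 9.67 with shSYK_2, against 8.94, 8.90 and 8.81 with shLuc, a rise of 0.89 ± 0.0587. CTSH, cathepsin H, rose by 1.83, GRN, progranulin, by 0.60 and CTSA, cathepsin A, by 0.54.

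The CD14 promoter is printed because CD14 had the largest rise in the monocyte and neutrophil lists. The window is the 250 bases before the gene's start, chr5:140633176-140633425 on the minus strand of GRCh38.p14, from RefSeq. Capitals mark GAGGAA, the core letters read by PU.1 and other ETS factors, which begins 96 bases before the start.
CD14: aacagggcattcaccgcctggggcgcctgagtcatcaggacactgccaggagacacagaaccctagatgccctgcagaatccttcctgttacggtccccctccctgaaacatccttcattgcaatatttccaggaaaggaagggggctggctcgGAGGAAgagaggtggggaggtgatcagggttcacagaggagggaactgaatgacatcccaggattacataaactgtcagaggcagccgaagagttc
Searched on both strands, GAGGAA lay in 10 of the 23 monocyte list promoters that had an entry (43.5%) and in 5 of 12 ITAM list promoters (41.7%), against 23.4% of all 27305 promoters in the table and 23.7% of the 9711 promoters of genes tested. Genes of these lists were counted whether called or not, so the shares describe the lists and say nothing of the response. A match of letters is not a binding site. SPI1, the gene of PU.1, was not called, with a change of -0.08 ± 0.0969.

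The 15 largest falls, from -2.09 for SYK to -1.06, held genes of several unlike functions. They too were picked by size on these arrays, so their separation from shLuc follows largely from the choice. TENT5C, a cytoplasmic poly(A) polymerase, had 4.38 and 4.35 with shSYK_1 and 4.27 and 4.73 with shSYK_2, against 5.86, 6.01 and 5.99 with shLuc, a change of -1.52 ± 0.140 (limma adjusted p = 6.02e-07). PLCB4, a phospholipase C of G protein signalling, had 3.97 and 3.61 with shSYK_1 and 4.12 and 4.22 with shSYK_2, against 5.40, 5.16 and 5.43 with shLuc, a change of -1.35 ± 0.0964. CD38, the NAD-consuming ectoenzyme of myeloid progenitors and plasma cells, had 4.56 and 4.56 with shSYK_1 and 4.3 and 4.58 with shSYK_2, against 5.49, 5.79 and 5.71 with shLuc, a change of -1.16 ± 0.121. In each of these the 4 hairpin arrays lay below all shLuc arrays. PRKACB, a catalytic subunit of protein kinase A, had 6.94 and 6.88 with shSYK_1 and 6.73 and 6.93 with shSYK_2, against 7.93, 7.96 and 7.90 with shLuc, a change of -1.06 ± 0.0600. The difference between hairpins for PRKACB was -0.08 (limma adjusted p = 0.511). The zinc and iron importer SLC39A14 fell more with shSYK_1 (-1.66) than with shSYK_2 (-0.54), as did the neuropeptide gene GAL (-1.46 and -0.76) and the adhesion ligand ICAM2 (-1.61 and -0.73). The others were ALDH5A1 at -1.30, GPM6B at -1.23, ADGRA3 at -1.14, RGS16 at -1.11, DNAJC12 at -1.08 and CA8 at -1.06.

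MED21, a subunit of the Mediator complex, was 1 of these 15 by its mean of -1.21, yet shSYK_2 alone carried it. It had 7.68 and 7.66 with shSYK_1 and 5.20 and 5.79 with shSYK_2, against 7.77, 7.88 and 7.73 with shLuc. The shSYK_1 arrays lay just under the shLuc arrays and the shSYK_2 arrays far below. The change was -0.12 with shSYK_1 (limma adjusted p = 0.554) and -2.30 with shSYK_2 (adjusted p = 3.51e-09). The same split was measured in MOLM-14 (0.10 and -2.07) and in U937 (0.10 and -2.37). The other 14 falls were called with each hairpin, and all 15 stayed members without shSYK_2 replicate 1.

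A list of MYC targets, most of them ribosome biogenesis factors, was lower as was MYC, beside 10.8% higher and 12.2% lower over all genes. Of 28 measured, 25 fell, none rose and 3 were not called, with a median of -0.32 log2 and a range of -0.55 to -0.12. The median was -0.45 with shSYK_1 and -0.25 with shSYK_2, and 22 fell without shSYK_2 replicate 1. Summed over the list, intensities ran from 39500 to 43200 on hairpin arrays, against 47500 to 48100 on shLuc arrays. UTP20, a factor of small-subunit rRNA processing, had 8.19 and 8.15 with shSYK_1 and 8.29 and 8.29 with shSYK_2, against 8.73, 8.77 and 8.75 with shLuc, a change of -0.52 ± 0.0548 (limma adjusted p = 2.91e-06). POLR1C, a subunit shared by RNA polymerases I and III, changed by -0.53, ODC1, ornithine decarboxylase, by -0.47, and MRTO4, a large-subunit assembly factor, by -0.42. ODC1 and 6 others of the falls, SRM, CDK4, LDHA, HSPD1, HSPE1 and IPO4, are not factors of ribosome assembly. The structural proteins of the ribosome did not follow. Of 19 measured cytosolic ribosomal protein genes, none was called, with a median of 0.04 and RPS6 at 0.12 ± 0.0462 (limma adjusted p = 0.0713). For 5 of the 19 all 4 hairpin arrays lay above all shLuc arrays, beside 10.4% of all genes, and for none below. In the MYC network, 5 of 12 fell and 2 rose (1 without shSYK_2 replicate 1). Besides MYC these included MYCBP, a MYC-binding protein, at -0.44, MYCBP2 at -0.24 and MLX, a partner of the MondoA branch of the network, at 0.39.

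The UTP20 promoter is shown as an example of the E-box, CACGTG, the letters bound by MYC with MAX. The 250 bases are chr12:101279855-101280104 on the plus strand of GRCh38.p14, from RefSeq, and the capitals mark the E-box, which begins 10 bases before the start.
UTP20: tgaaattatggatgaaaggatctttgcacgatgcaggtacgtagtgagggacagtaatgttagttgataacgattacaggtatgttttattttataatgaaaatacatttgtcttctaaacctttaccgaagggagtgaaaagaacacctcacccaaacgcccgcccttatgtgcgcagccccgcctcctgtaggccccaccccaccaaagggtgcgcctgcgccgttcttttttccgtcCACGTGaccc
CACGTG lay in 7 of 24 promoters of the MYC target and ribosome biogenesis list (29.2%), a list made up of MYC targets, so that E-boxes in it say nothing of these data, against 6.49% of all promoters in the table and 8.29% of those of genes tested. It reads the same on both strands.

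Replication genes fell in part, while genes of mitosis hardly moved, beside 10.8% higher and 12.2% lower over all genes. Of 35 measured G1/S and replication genes, 17 fell (13 without shSYK_2 replicate 1), 1 rose and 17 were not called, with a median of -0.20. GINS1, a subunit of the replicative helicase complex, had 8.19 and 8.19 with shSYK_1 and 8.17 and 8.24 with shSYK_2, against 8.94, 8.97 and 9.0 with shLuc, a change of -0.77 ± 0.0516 (limma adjusted p = 1.79e-08). RPA2, of the single-strand DNA binding complex, had 8.58 and 8.48 with shSYK_1 and 8.39 and 8.48 with shSYK_2, against 9.16, 9.20 and 9.12 with shLuc, a change of -0.68 ± 0.0682. Both were as low with 1 hairpin as with the other. RFC5, of the clamp loader, changed by -0.85, CDC45, of the helicase, by -0.47, and UNG, uracil DNA glycosylase, by -0.54 (-0.87 with shSYK_1 and -0.20 with shSYK_2). The 1 rise was TK1, thymidine kinase, at 0.50 ± 0.0980. Of 27 measured G2/M genes, 3 rose, 1 fell, 1 was called with opposite signs and 22 were not called, with a median of 0.01. Those rises were near the share of all genes and the fall was under it. NDC80, of the outer kinetochore, had 8.19 and 8.21 with shSYK_1 and 7.84 and 7.93 with shSYK_2, against 7.62, 7.58 and 7.6 with shLuc, a rise of 0.44 ± 0.0586. With centring, 1 G2/M gene rose and 2 fell, and without shSYK_2 replicate 1 none fell. MKI67, the proliferation marker, had opposite signs, 0.68 with shSYK_1 and -0.15 with shSYK_2.

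The promoter of MCM3, a subunit of the replicative helicase that changed by -0.21 ± 0.0518 (limma adjusted p = 0.00582; -0.22 with shSYK_1 and -0.21 with shSYK_2), carries an E2F motif. The window is chr6:52284743-52284992 on the minus strand of GRCh38.p14, from RefSeq, and the capitals mark TTTCCCGC, which begins 174 bases before the start.
MCM3: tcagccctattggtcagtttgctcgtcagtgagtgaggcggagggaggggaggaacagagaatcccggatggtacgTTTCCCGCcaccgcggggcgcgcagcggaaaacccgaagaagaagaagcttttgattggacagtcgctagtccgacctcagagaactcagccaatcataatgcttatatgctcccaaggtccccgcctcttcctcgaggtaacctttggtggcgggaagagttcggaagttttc
TTTCCCGC lay in 8 of 30 replication promoters (26.7%), against 1.42% of all promoters and 2.02% of those of genes tested. The related TTTGGCGC lay in 4 of the 30 (13.3%), against 0.553% and 0.793%. Both were searched on both strands. Genes of the list were counted whether called or not, so these shares describe the list and say nothing of the response.

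Cyclins and their inhibitors split, beside 10.8% higher and 12.2% lower over all genes. Of 15 measured, 6 rose (5 without shSYK_2 replicate 1) and 6 fell. CDK6, a G1 kinase, had 5.02 and 4.92 with shSYK_1 and 4.51 and 4.44 with shSYK_2, against 5.41, 5.35 and 5.33 with shLuc, a change of -0.64 ± 0.140, and CDK4 changed by -0.33. CCND2, cyclin D2, had 9.08 and 9.15 with shSYK_1 and 9.28 and 9.46 with shSYK_2, against 9.62, 9.67 and 9.63 with shLuc, a change of -0.40. CCNA1, the germ cell and myeloid cyclin A, changed by -0.56, mostly with shSYK_2 (-0.93, against -0.19 with shSYK_1). On the rising side, CDKN1C, the CDK inhibitor p57, had 4.32 and 4.34 with shSYK_1 and 4.55 and 4.69 with shSYK_2, against 3.87, 3.72 and 3.89 with shLuc, a rise of 0.65. CDKN1B, p27, rose by 0.38. Cyclin D3, CCND3, rose by 0.61, and this was 1.04 with shSYK_1 and 0.18 with shSYK_2.

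Primary granule proteins, the hallmark of promyelocytes, went both ways, beside 10.8% higher and 12.2% lower over all genes. Of 12 measured, 4 fell, 2 rose, 2 were called with opposite signs and 4 were not called, with a median of -0.20. MPO had 12.10 and 12.17 with shSYK_1 and 12.43 and 12.33 with shSYK_2, against 12.82, 12.74 and 12.85 with shLuc, a change of -0.54 ± 0.107 (limma adjusted p = 0.00115). PRTN3 had 9.52 and 9.53 with shSYK_1 and 9.65 and 9.65 with shSYK_2, against 10.27, 10.32 and 10.27 with shLuc, a change of -0.70 ± 0.0893. These were lower on every hairpin array. CTSG, cathepsin G, changed by -0.54, made of -0.99 with shSYK_1 and -0.09 with shSYK_2, and the defensin DEFA4 by -0.59 (-1.06 and -0.13), a call lost without shLuc replicate 2 (-0.49). Without shSYK_2 replicate 1, 3 members of this list fell and 2 rose. AZU1 was lower with shSYK_1 (-0.80) and had 0.19 with shSYK_2, and CST7, cystatin F, had -0.45 and 0.01. RNASE2, eosinophil-derived neurotoxin, rose by 0.25 and the granule membrane protein CD63 by 0.30. ELANE, neutrophil elastase, had 11.58 and 11.55 with shSYK_1 and 11.57 and 11.74 with shSYK_2, against 11.62, 11.52 and 11.62 with shLuc, so the groups overlapped and the change of 0.02 was not called. SRGN at -0.07, BPI at 0.10 and MS4A3 at -0.18 were not called either.

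Lineage transcription factors moved on both sides. Of 26 measured, 7 rose, 4 fell and 15 were not called, beside 10.8% higher and 12.2% lower over all genes. Without shSYK_2 replicate 1, 7 rose and 2 fell, since GATA2 and CEBPA (C/EBPα, -0.18, and -0.16 without that array, limma adjusted p = 0.0724) lost their calls. KLF4, a zinc finger factor that promotes monocyte differentiation, had 7.04 and 7.03 with shSYK_1 and 6.36 and 6.32 with shSYK_2, against 5.33, 5.59 and 5.54 with shLuc, a rise of 1.2 ± 0.0964 (limma adjusted p = 1.38e-07). CEBPB, C/EBPβ, had 10.47 and 10.30 with shSYK_1 and 9.72 and 9.83 with shSYK_2, against 9.34, 9.39 and 9.39 with shLuc, a rise of 0.70 ± 0.0728. For both, shSYK_1 was highest, shSYK_2 lay between and shLuc was lowest. ID2, an inhibitor of basic helix-loop-helix factors, rose by 0.62. The progenitor factor MYB had 10.06 and 10.02 with shSYK_1 and 10.20 and 10.28 with shSYK_2, against 10.51, 10.53 and 10.47 with shLuc, a change of -0.36 ± 0.0549. IRF8, which favours monocytes over granulocytes, changed by -0.29 ± 0.0534. GATA2, a factor of stem and progenitor cells, changed by -0.76 ± 0.214, with shSYK_2 at 6.25 and 6.58 inside the shLuc range of 6.10 to 7.13. Its call was lost without shLuc replicate 2 (-0.60), shLuc replicate 3 (-0.59), shSYK_1 replicate 2 (-0.62) or shSYK_2 replicate 1 (-0.68). Among 11 growth factor receptors, IFNGR1, the interferon γ receptor chain, rose by 0.60, CSF2RA, the GM-CSF receptor α chain, by 0.76 and CSF3R, the G-CSF receptor, by 0.47, and FLT3 alone fell. Under renewed quantile normalisation FLT3 no longer had the same sign with each hairpin, and with centring 2 receptors fell.

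Interferon, antigen presentation and inflammatory genes held more rises than falls, beside 10.8% higher and 12.2% lower over all genes. Of 32 measured interferon-stimulated genes, 12 rose (9 without shSYK_2 replicate 1) and none fell, with a median of 0.22. IRF9, the DNA-binding part of ISGF3, rose by 0.71 (1.06 with shSYK_1 and 0.36 with shSYK_2) and the membrane protein BST2 by 0.44. IFIT1 at -0.14 and IFIT3 at 0.02, antiviral proteins strongly induced by type I interferon, were not called. Of 20 measured MHC and immunoproteasome genes, 10 rose (7 without shSYK_2 replicate 1), none fell and 1 was called with opposite signs. PSMB8, an immunoproteasome subunit, had 9.10 and 9.11 with shSYK_1 and 9.06 and 9.11 with shSYK_2, against 8.66, 8.68 and 8.54 with shLuc, a rise of 0.47. CD74, the invariant chain of MHC class II, rose by 0.63. Of 20 NF-kB inflammatory genes, 8 rose and 1 fell. IL1B, interleukin-1β, had 6.49 and 6.44 with shSYK_1 and 5.27 and 5.71 with shSYK_2, against 4.77, 4.77 and 4.90 with shLuc, a rise of 1.16 ± 0.112. TNF was the 1 that fell, with 6.62 and 6.57 with shSYK_1 and 6.39 and 6.52 with shSYK_2, against 7.06, 7.06 and 6.82 with shLuc, a change of -0.46. IL1B and TNF thus moved oppositely, each with no overlap between hairpin and shLuc arrays.

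Metabolic lists were mixed, beside 10.8% higher and 12.2% lower over all genes, and the counts for ATF4 and oxidative phosphorylation genes were near or under those shares. Of 16 measured redox and iron genes, 6 rose (5 without shSYK_2 replicate 1) and 1 fell. BLVRB, a biliverdin reductase that acts after HMOX1 in haem breakdown, had 8.45 and 8.48 with shSYK_1 and 7.45 and 7.44 with shSYK_2, against 6.27, 6.34 and 6.24 with shLuc, a rise of 1.67 ± 0.0650. NQO1, a quinone reductase, rose by 1.08 and the metallothionein MT2A by 0.60, while the peroxiredoxin PRDX1 changed by -0.20. Of 18 sterol and fatty acid synthesis genes, 8 fell (6 without shSYK_2 replicate 1) and 1 rose. FASN, fatty acid synthase, had -0.64 with each hairpin, LSS, lanosterol synthase, changed by -0.63 and SQLE, squalene epoxidase, by -0.35. INSIG1, the sterol sensor that restrains this pathway, rose by 0.33 on its brightest probe set, while its other probe sets had 0.15 and 0.13, not called. Of 19 glycolytic genes, 4 rose and 2 fell, with hexokinase HK1 at 1.22 and the glucose transporter SLC2A3 at 1.06. Another SLC2A3 probe set, nearly as bright, had 0.20 and was not called, and the rest rose by 0.65 to 0.67. Of 21 oxidative phosphorylation genes, 2 rose and 1 fell, with a median of 0.06, and 1 rose without shSYK_2 replicate 1 or with centring. Of 22 ATF4 amino acid response genes, 3 rose (5 without shSYK_2 replicate 1), 1 fell and 1 was called with opposite signs, the fall being SLC7A5, the large neutral amino acid transporter, at -0.48.

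In the remaining signalling and survival lists, counts were small, and they stand beside 10.8% higher and 12.2% lower over all genes. ERK feedback and immediate early genes had 5 rises and 3 falls of 21, with the phosphatase DUSP6 at 0.50 and DUSP2 at -0.52, and EGR1 was at low intensity and not called (-0.29 ± 0.403). STAT5, SOCS and PIM genes had 3 rises and 2 falls of 15, falls being near the share of all genes, with the kinase PIM2 at -0.85 ± 0.0961. In the BCL2 family 5 of 17 rose and 5 fell. BCL2, the anti-apoptotic founder, had 7.51 and 7.38 with shSYK_1 and 8.08 and 7.99 with shSYK_2, against 8.36, 8.30 and 8.23 with shLuc, a change of -0.56, though only 2 of its 4 probe sets had this sign. BCL2A1, an NF-kB-regulated survival protein, rose by 0.68, the mitophagy receptor BNIP3L by 0.77, and the BH3-only proteins BIK and BID changed by -0.55 and -0.38. Of 15 targets of p53, 4 rose and none fell (2 rises with centring). Of 10 histone genes, 3 rose, none fell and 1 was called with opposite signs. H2BC12 rose by 0.46 with shSYK_1 and 1.26 with shSYK_2, but probes of histone genes can bind related copies.

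Of the lists of markers of other cell types, the 4 blood lineage lists had few calls. The epithelial and stromal list had a higher sum after knockdown. Over all genes, 10.8% were higher and 12.2% lower. Summed intensities ran from 117 to 172 on hairpin arrays against 118 to 128 on shLuc arrays for 9 erythroid genes, 107 to 140 against 111 to 121 for 11 megakaryocyte genes, 226 to 287 against 274 to 299 for 14 T and NK cell genes, and 63.7 to 68.1 against 62.6 to 69.8 for 6 B cell genes. None of the megakaryocyte or B cell genes was called. NKG7 was the 1 T and NK gene that fell, at -0.30, and EPB42, at low intensity, the 1 erythroid gene that rose, at 0.24, a call lost without shLuc replicate 2 or 3, either shSYK_1 array or shSYK_2 replicate 2 (0.19 to 0.24). For 14 epithelial and stromal genes the sum ran from 2660 to 3520 on hairpin arrays against 1160 to 1220 on shLuc arrays. Of them 3 rose (2 without shSYK_2 replicate 1), all of them also expressed by myeloid cells. VIM, vimentin, had 11.43 and 11.54 with shSYK_1 and 11.05 and 11.17 with shSYK_2, against 9.82, 9.83 and 9.69 with shLuc, a rise of 1.52 ± 0.0559. PECAM1, the adhesion molecule CD31, rose by 1.05. FN1, fibronectin, rose by 0.35 but lost its call without any 1 array other than shSYK_2 replicate 2 (0.27 to 0.38). Its other probe sets had -0.08 to 0.10, none of them called.

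**Figure D3:**
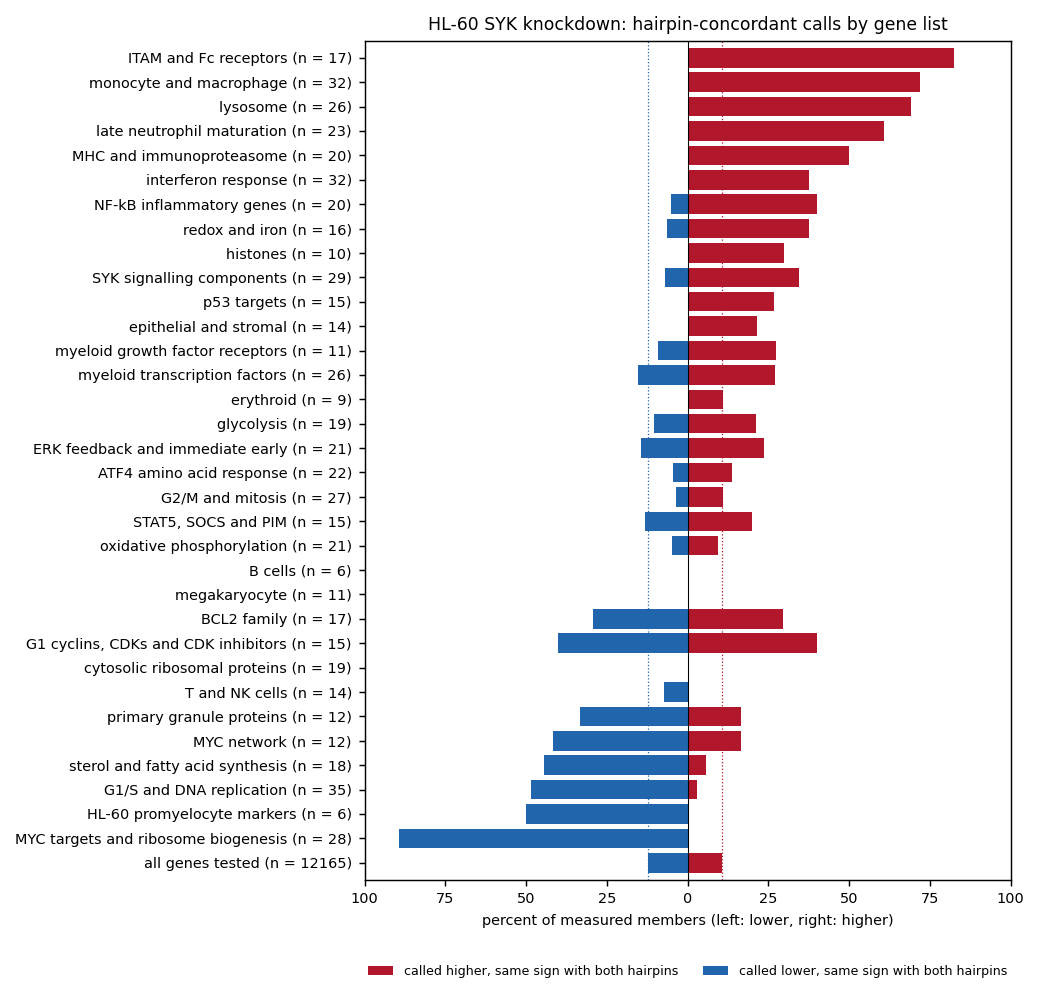
Percent of measured members of each gene list that were called in HL-60 with the same sign for both hairpins, higher to the right and lower to the left, with n the number measured; the dotted lines and the bottom row give all 12165 genes tested (10.8% higher and 12.2% lower). ITAM and Fc receptors have 14 of 17 higher, monocyte and macrophage genes 23 of 32 higher, and MYC targets and ribosome biogenesis 25 of 28 lower.

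The members were chosen for the same sign with each hairpin, so only the size of their change could differ. Among the 2793 members, 1718 changed more with shSYK_1 and 1075 with shSYK_2. The difference between hairpins was called for 1063 members, of which 773 changed more with shSYK_1 and 290 with shSYK_2. These counts depend on the group of the array with conflicting labels. Over all genes the difference was called for 2704, and for 32 with that array moved to shSYK_1. Fewer were also called without that array, and without shSYK_1 replicate 1, each of which left a hairpin with a single array. SYK was lower by 0.24 log2 with shSYK_2 than with shSYK_1, a difference that did not pass the threshold. Called with each hairpin in opposite directions were 116 genes (0.954% of all). SNX10, an endosomal sorting protein, had 9.56 and 9.49 with shSYK_1 and 7.32 and 7.75 with shSYK_2, against 8.65, 8.72 and 8.72 with shLuc, so shLuc lay between. GLO1, the glyoxalase that detoxifies methylglyoxal, had 9.73 and 9.77 with shSYK_1 and 10.85 and 10.85 with shSYK_2, against 10.32, 10.30 and 10.25 with shLuc, the reverse order. The SRC family kinase YES1 had 0.78 with shSYK_1 and -0.72 with shSYK_2, the adhesion molecule ALCAM 0.50 and -0.63, ZMYM6 -0.65 and 0.58, and the interferon receptor chain IFNAR2 -0.47 and 0.53. The other IFNAR2 probe set rose in the joint contrast by 0.71 (limma adjusted p = 9.58e-06), against 0.03 on the brighter one, so this reading depends on the probe set. The other ALCAM probe set changed by -0.42 (limma adjusted p = 0.0133), against -0.07. With shSYK_2 replicate 1 moved to shSYK_1, as its source name has it, the calls of the difference between hairpins were lost for these 6 genes. Just inside the threshold of the knockdown contrast lay MMP9, a gelatinase, at 0.31 (limma adjusted p = 0.0498), and just outside it the helicase DHX9 at -0.17 (limma adjusted p = 0.0501).

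The HL-60 response was set against the mean of the MOLM-14 and U937 responses in the same model. The difference was called for 8.89% of genes, 4.88% with a higher HL-60 value and 4.0% with a lower one. Of the 1081 genes called, 783 were members, 408 of them rises with the higher HL-60 value and 345 falls with the lower one. Members were chosen on the HL-60 response, which is also a part of this difference. The overlap and the matching directions are therefore partly built in. CD14 rose by 2.39 in HL-60, while it had 0.09 in MOLM-14 and 0.05 in U937, a difference of 2.32 ± 0.152 (limma adjusted p = 7.69e-08). OLR1, PLA2G7, CLEC7A and ADORA3 rose in HL-60 by 1.76 to 2.71 and were not called in MOLM-14 or U937. C1QA, which rose by 1.94 in HL-60, was not called in MOLM-14 (0.03) and rose by 0.37 in U937 (limma adjusted p = 0.012). With shLuc, CD14 averaged 6.55 ± 0.0617 in HL-60, against 3.08 ± 0.213 in MOLM-14 and 2.75 ± 0.177 in U937 (SD, n = 3 each). All 6 genes were under 4.0 with shLuc in MOLM-14 and U937, where RMA compresses changes. OLR1, CLEC7A and ADORA3 were under 4.0 with shLuc in HL-60 too, so for them this limit holds in all 3 lines. Among monocyte and macrophage genes, 13 of 32 had a higher and 3 a lower response in HL-60, with medians of 0.79 in HL-60, 0.15 in MOLM-14 and 0.37 in U937. The median of MYC targets and ribosome biogenesis genes was -0.32 in HL-60, against -0.10 in MOLM-14 and -0.14 in U937, and for 7 of 28 genes the HL-60 value was called lower. For cell cycle genes the lower values were those of the other lines. The G1/S median was -0.20 in HL-60, against -0.48 in MOLM-14 and -0.53 in U937, and for 16 of 35 genes the HL-60 value was called higher, as it was for 17 of 27 G2/M genes (medians 0.01, -0.34 and -0.31). CD48, a SLAM family ligand, rose in all 3 lines, by 1.13 in HL-60, 2.29 in MOLM-14 and 2.04 in U937, and its HL-60 response minus the mean of the others was -1.04 ± 0.0832. HMOX1 rose by 1.81 in HL-60, 1.31 in MOLM-14 and 1.30 in U937, with no call for the difference (0.51, limma adjusted p = 0.0646). SYK fell by 2.09 in HL-60, by 2.62 in MOLM-14 and by 1.91 in U937, with no call for the difference (0.18, limma adjusted p = 0.224).

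**Figure D4:**
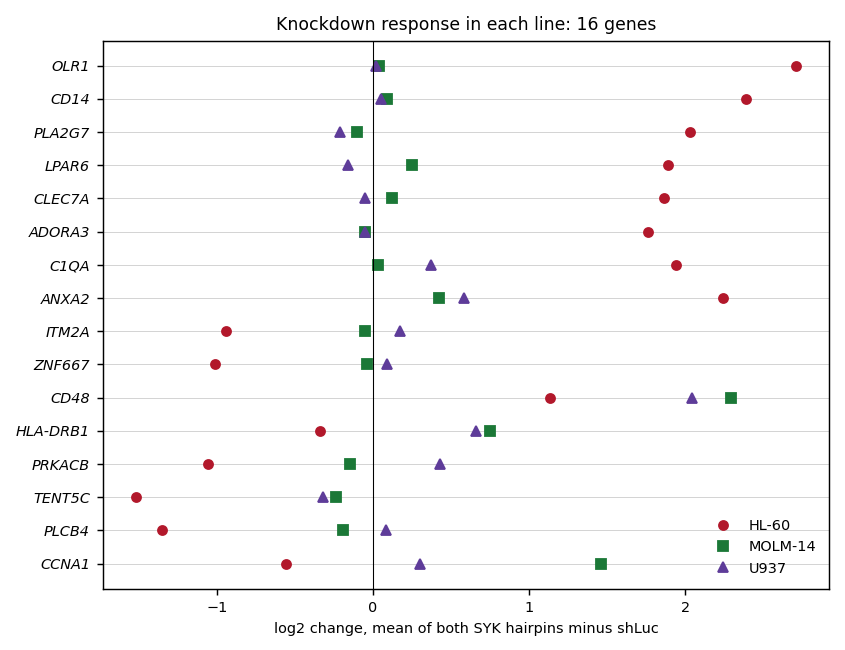
Log2 change after SYK knockdown (mean of both hairpins minus shLuc) in HL-60, MOLM-14 and U937 for the 16 members named for their difference between HL-60 and the other lines. CD14 is at 2.39 in HL-60, 0.09 in MOLM-14 and 0.05 in U937, while CD48 is at 1.13, 2.29 and 2.04.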

How the data were processed

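RNA was measured on Affymetrix expression arrays, where several short probes (a probe set) measure a transcript. Per the submitters' processing notes, which give no version, the authors made the deposited intensity values with RMA, 1 per probe set and array. Because the values, 3.23 to 13024.67, are linear and the planned tests had assumed log2 values, their log2 was taken with no pseudocount. Arrays give no read depth, and their number limits the precision.

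Of 22277 probe sets, 62 controls, 568 with several gene symbols and 1923 with none in the annotation used were left out. Of the remaining 19724, 19707 had symbols updated by gene ID through RefSeq (GRCh38.p14) and 17 kept the platform's name. The brightest probe set over all arrays stood for its gene, which gave 12165 genes. Groups followed the sample titles. With limma 3.58.1 in R 4.3.3, 1 model with 9 group means was fitted to all 21 arrays (12 residual and 4.09 prior degrees of freedom), so that all lines share 1 estimate of the spread. Tests were two-sided, and the fit was tested on simulated data. Genes whose highest HL-60 group mean lay in the lowest 40% of genes were treated as at low intensity.

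Whether replicate numbers pair arrays could not be decided, and the main fit did not pair them. Deviations from group means correlated at -0.214 to 0.092 for same-numbered HL-60 arrays and at -0.092 to 0.214 for differently numbered ones. In a group of 2 arrays the deviations are mirror images, so few of these values are independent. The members and the 33 gene lists were chosen with earlier results of these data known, so counts over a list describe it. Named by rule were SYK, FLT3 and MYC, the 15 largest rises and falls, up to 4 genes per list by smallest p, the primary granule list in full, the 8 higher and 8 lower members with the largest difference from the other lines, and 6 genes with opposite signs. Other genes were chosen after their values were seen. Alternatives changed the arrays fitted, the prior, array weights, scaling, probe sets, low-intensity genes, pairing and the group of the array with conflicting labels.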

Additional observations from a re-analysis of the deposited data

Results flagged for a closer look

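The interaction test, which sets the HL-60 response against the mean of the MOLM-14 and U937 responses, called 1081 genes with limma at an adjusted p below 0.05. The members with the largest positive differences were OLR1 at 2.68, CD14 at 2.32, PLA2G7 at 2.18, LPAR6 at 1.84, CLEC7A at 1.82, ADORA3 at 1.81, ANXA2 at 1.74 and C1QA at 1.74. ADORA3, the adenosine A3 receptor, had 5.58 and 5.07 log2 with shSYK_1 and 5.01 and 4.87 with shSYK_2, against 3.29, 3.48 and 3.36 with shLuc in HL-60, a rise of 1.76, and it had -0.05 in MOLM-14 and -0.05 in U937. With shSYK_2 replicate 1 placed in shSYK_1, the difference for OLR1 was 2.35 and was not called (limma adjusted p = 0.0512).

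The members with the largest negative differences were CCNA1 at -1.44, PLCB4 at -1.30, TENT5C at -1.24, PRKACB at -1.2, HLA-DRB1 at -1.05, CD48 at -1.04, ZNF667 at -1.03 and ITM2A at -1.0. CCNA1, a cyclin, changed by -0.56 in HL-60, 1.46 in MOLM-14 and 0.30 in U937, and it rose in the other lines. HLA-DRB1, a chain of MHC class II, changed by -0.34 in HL-60 (limma adjusted p = 0.049), 0.75 in MOLM-14 and 0.66 in U937. That HL-60 change lost its call without shLuc replicate 1 (-0.28), shLuc replicate 3 (-0.26), shSYK_1 replicate 1 (-0.24) or shSYK_2 replicate 1 (-0.24), and 2 of its 3 probe sets had this sign. ZNF667, a zinc finger protein, changed by -1.01 in HL-60, -0.04 in MOLM-14 and 0.09 in U937. ITM2A, a membrane protein, changed by -0.94, -0.05 and 0.17 in the same order.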

How the results depend on the processing

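Calls of the knockdown numbered 2970 as reported, 1811 with the HL-60 arrays fitted alone, 1917 with a replicate block, 1696 with shSYK_2 replicate 1 placed in shSYK_1, and 2411 to 3649 with 1 HL-60 array left out. Members numbered 2793, 1750, 1848, 1694 and 2299 to 3244 under the same settings in the same order, and 357 with at least 0.5 log2 required of each hairpin. The shSYK_1 calls numbered 2953, 1928 with HL-60 alone and 2151 to 3274 with 1 array left out. The shSYK_2 calls numbered 2611, and then 1116 with HL-60 alone, 1055 with array weights, 1441 with the replicate block, 516 with the array moved and 1248 (without shSYK_2 replicate 1) to 3549 with 1 array left out. Calls with both hairpins numbered 1165, and then 540, 625, 671, 434 and 766 (without shSYK_2 replicate 1) to 1206. Calls of the hairpin difference numbered 2704, and then 1252 with HL-60 alone, 1274 with array weights, 32 with the array moved, and 1529 (without shSYK_1 replicate 1) to 3596, with 1604 without shSYK_2 replicate 1. Calls against the other lines numbered 1081, 378 with the replicate block, 452 with the array moved, and 789 to 1825 (without shSYK_2 replicate 2). Crossing the shSYK_2 numbers in the block, a setting added after seeing the data, as were list counts without shSYK_2 replicate 1, gave 2028 knockdown calls, 1947 members, 1584 shSYK_2 calls, 711 with both hairpins and 428 against the other lines. In the fit with array weights, each HL-60 shSYK_2 array had a weight of 0.380, against 0.885 to 1.48 on all other arrays. Apart from fewer arrays in a fit, the cause of these changes in counts was not tested.

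SYK was called under every setting, at -2.15 to -2.03 with 1 array left out. ELANE, not called at 0.02, turned to -0.02 with centring, and ran from -0.02 (without shSYK_2 replicate 2) and -0.01 (without shLuc replicate 2) to 0.06 (without shSYK_2 replicate 1) with 1 array left out. Of 3175 values of named genes under other settings, 188 lost a call, 3 gained one, 3 turned direction and 2981 did neither. The setting with the most lost calls placed shSYK_2 replicate 1 in shSYK_1. FLT3 (-0.30), TREM2 (1.03), CTSG (-0.40), S100A8 (0.37), S100A9 (0.53) and CCND3 (0.44) were among the genes that lost theirs there. Only 2 arrays per hairpin, 1 of them with conflicting labels, the use of 1 cell line and of 1 day limit every result, and values under 4.0 log2 carry no detection call.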
